A study of Mus musculus with 8 samples.

Results

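Committed epidermal cells were taken here as the sorted wells chosen by their own keratin readout, in which *Krt1* and *Krt10*, the keratin pair of the spinous layer, together held at least 0.5% of the transcripts. A well entered the count with at least 1000 transcripts, under 10% of them from *Kcnq1ot1* (a transcript that was high in damaged wells), fewer than 4 transcripts of the T cell genes *Cd3d*, *Cd3e*, *Cd3g* and *Cd7*, and fewer than 10 of the Langerhans cell genes *Cd74*, *H2-Ab1* and *H2-Aa*. Of 904 epidermal wells on 6 plates, 153 were committed wells, which is 16.9%. The other 751 epidermal wells were the comparison. They comprised 345 wells without follicle genes, 142 upper follicle wells, where *Krt79*, *Cst6* and *Defb6* held 0.1% or more and more than the lower follicle genes did, 262 lower follicle wells, where *Cd34*, *Postn*, *Aspn*, *Lhx2* and *Nfatc1* held 0.1% or more, and 2 wells with damage or pigment genes.

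The cells came from the skin epidermis of adult C57BL/6 mice in which an EGFP-IRES-CreERT2 cassette replaces the coding region of *Troy* (*Tnfrsf19*), so that all groups carry this knockin and EGFP stands in for *Troy*. Of the 6 mice with single-cell plates, 4 carried the knockin (EGFP 1 to 4) and 2 carried both the knockin and a Rosa26-LSL-tdTomato reporter at both alleles and had been given a single tamoxifen injection about a week before collection (traced 1 and 2). Whether the EGFP mice carried the knockin at 1 or both alleles is not given in the sources used here. Each plate held 384 sorted wells of 1 mouse. Cells had been gated on ITGA6 protein and on EGFP or tdTomato, and the gate of a well was not used here, so the share of committed wells on a plate depends on how the gates were filled. In the bulk experiment, viable cells, ITGA6bright EGFP+ cells and ITGA6bright EGFP- cells were sequenced from 2 replicates of the same Troy-EGFP-IRES-CreERT2 line. Cre in this line acts in cells that express *Troy*, and no mouse without the knockin was among the samples.

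The epidermis renews from a basal layer whose cells express keratins 5 and 14 and hold on to the basement membrane through hemidesmosomes, built around integrin alpha 6 beta 4 and collagen XVII. A cell that commits to differentiation switches to keratins 1 and 10, strengthens its desmosomes and moves into the spinous layer. In the granular layer above, cells make the lipids and the cornified envelope proteins of the skin barrier.

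The start sites of the genes on both sides of this switch are shown first. *Krt1* lies at chr15:101845426-101850786, *Krt10* at chr11:99385254-99397449, *Krt5* at chr15:101707069-101712905 and *Krt14* at chr11:100203162-100207510 (GRCm38.p6). RefSeq windows of 300 bases, 250 before and 50 after the start, are printed 5′ to 3′ on the gene's own strand for *Krt10* (chr11:99389315-99389614, minus strand), for *Krtdap*, a committed-cell marker that the selection did not use (chr7:30787655-30787954, plus strand), and for *Krt5* (chr15:101712856-101713155, minus strand). The *Krt10* window lies within the annotated range of the gene, which reaches further upstream. Capitals mark matches, on either strand, to TATAAA (the TATA box) or to TGANTCA (the AP-1 motif).
*Krt10*: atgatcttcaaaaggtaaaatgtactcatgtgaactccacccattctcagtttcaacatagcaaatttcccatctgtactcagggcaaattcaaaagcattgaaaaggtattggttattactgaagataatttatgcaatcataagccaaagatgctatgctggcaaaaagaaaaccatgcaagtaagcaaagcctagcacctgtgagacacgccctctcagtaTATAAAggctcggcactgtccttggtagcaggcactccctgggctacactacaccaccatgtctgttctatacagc
*Krtdap*: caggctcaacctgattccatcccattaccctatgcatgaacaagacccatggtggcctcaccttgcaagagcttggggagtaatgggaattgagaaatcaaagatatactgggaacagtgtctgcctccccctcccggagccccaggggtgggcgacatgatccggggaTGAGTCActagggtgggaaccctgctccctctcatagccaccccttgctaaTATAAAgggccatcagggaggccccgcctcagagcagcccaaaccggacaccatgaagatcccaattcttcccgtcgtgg
*Krt5*: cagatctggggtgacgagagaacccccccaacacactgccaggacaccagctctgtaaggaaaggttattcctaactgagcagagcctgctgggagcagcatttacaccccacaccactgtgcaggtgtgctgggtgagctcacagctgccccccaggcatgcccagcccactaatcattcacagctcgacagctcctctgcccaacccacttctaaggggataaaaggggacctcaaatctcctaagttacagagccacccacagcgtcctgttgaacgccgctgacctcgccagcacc
In *Krt10* the TATAAA match began 26 bases before the start. In *Krtdap* it began 30 bases before the start, and an AP-1 match lay 81 bases before the start. Neither motif was found in the *Krt5* window. Among 27025 promoters in the table, 14.2% held TATAAA and 7.93% held the AP-1 motif. Among the tested genes that were higher in committed wells than in wells without follicle genes and had a window, 240 in all, the shares were 9.58% and 8.75%, against 7.33% and 5.39% of the 2688 tested genes with a window. Among 280 genes that were lower the shares were 12.5% and 5.71%, so TATAAA was the more frequent in the lower genes. These matches describe letters only and mark no bound site.

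The values that chose the committed wells are a description and were not tested. *Krt1* and *Krt10* together held a median of 1.68% of the transcripts in the committed wells of EGFP 1, 1.48% in EGFP 2, 2.08% in EGFP 3, 1.35% in EGFP 4, 2.06% in traced 1 and 2.15% in traced 2, and at most 5.65% in a single well. In the other epidermal wells the median was 0% in every mouse. Of the 904 epidermal wells 530 had no transcript of either gene, 213 lay above 0 and below 0.25%, 8 between 0.25% and 0.5%, 29 between 0.5% and 1%, 61 between 1% and 2%, and 63 above 2%. Few wells therefore lay near the limit. The nearest wells below it were at 0.480% and 0.482%, and the nearest above it at 0.5001% and 0.536%.

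**Figure D1:**
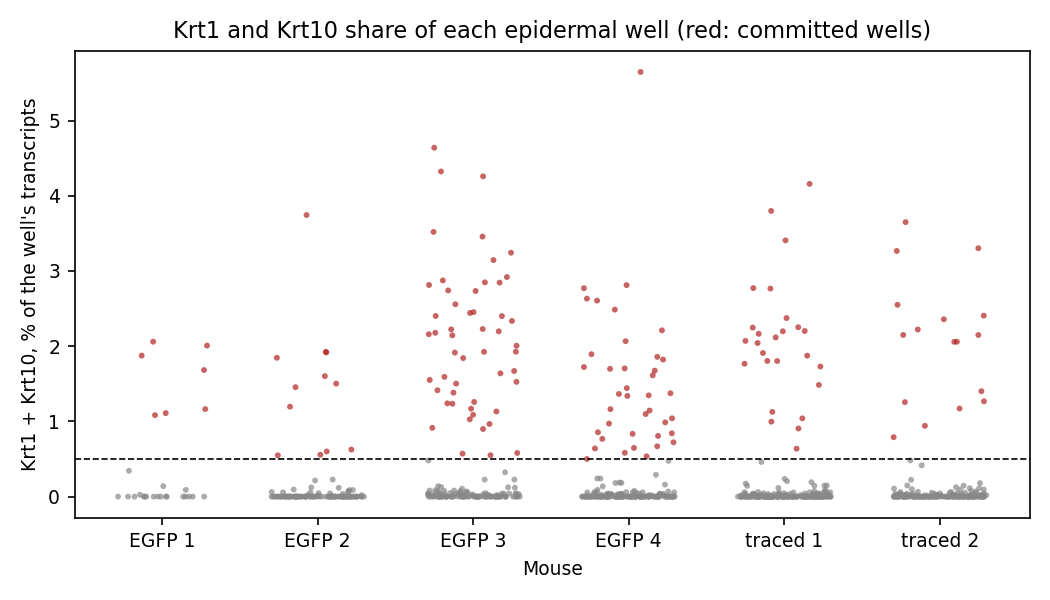
Share of *Krt1* and *Krt10* transcripts (vertical axis, % of the transcripts of a well) in each of 904 epidermal wells, by mouse (horizontal axis), with the committed wells in red and the limit of 0.5% dashed. Most wells lie at or close to 0, and the 153 committed wells spread from 0.5001% to 5.65%.

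*Krt1* and *Krt10* were found together in 148 of 153 committed wells, and *Krt10* alone in the other 5. *Krt10* was the more abundant of the pair. *Krt10* stood at 13514 CPM (counts scaled to a total of 1000000 transcripts over the wells of a class in a mouse) in EGFP 1, 10105 in EGFP 2, 16729 in EGFP 3, 12454 in EGFP 4, 15692 in traced 1 and 16934 in traced 2. *Krt1* stood at 2788, 5735, 4645, 4173, 6868 and 6290 CPM in the same mice. *Krt1* made up 25.5% of the pair over all committed wells and exceeded *Krt10* in 11 wells. Both genes are read from the 3′ end, so their ratio also carries how well each end is captured.

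The number of committed wells differed between plates. They were 7 of 27 epidermal wells in EGFP 1 (25.9%, 95% exact binomial interval 11.1 to 46.3%), 12 of 114 in EGFP 2 (10.5%, 5.56 to 17.7%), 52 of 163 in EGFP 3 (31.9%, 24.8 to 39.7%), 39 of 198 in EGFP 4 (19.7%, 14.4 to 25.9%), 26 of 218 in traced 1 (11.9%, 7.94 to 17.0%) and 17 of 184 in traced 2 (9.24%, 5.48 to 14.4%). The intervals cover counting error only. The plate of EGFP 1 lost 44 of 71 wells with 1000 transcripts to the *Kcnq1ot1* limit, and with fewer than 10 committed wells it entered no test of committed wells. The committed wells were deeper than the other epidermal wells of their plate, with a median of 2773 to 6407 transcripts per mouse against 2119 to 3278. The deepest committed well of traced 2 held 50743 transcripts, which is 37.3% of the committed transcripts of that mouse, and the deepest well held 24.3% in EGFP 2 and 4.85 to 7.88% in EGFP 3, EGFP 4 and traced 1. Doublets were not screened. Of the levels of *Krt5*, *Krt14*, *Krt15*, *Itga6*, *Krtdap*, *Elovl4* and *Acer1* in the 5 mice with more committed wells, those of *Elovl4* changed by over 1.5 times without these wells. Of the committed wells 10 also passed the limit of the upper follicle genes and 1 that of the lower follicle genes.

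The label of the wells was checked against the markers that the selection had not used. *Krtdap*, a secreted protein of differentiating keratinocytes, stood at 4916, 4235, 4793, 7596 and 6260 CPM in the committed wells of EGFP 2, 3, 4 and traced 1 and 2, and at 595, 344, 141, 393 and 185 CPM in the other epidermal wells of these mice. Every mouse was higher in committed wells and the classes did not overlap, although EGFP 1, with 7 committed wells, reached only 815 CPM against 0. *Elovl4*, which elongates the very long fatty acids of the barrier, stood at 205, 551, 689, 576 and 787 CPM in committed wells. Without the deepest committed well it stood at 90.2 CPM in EGFP 2 and 364 CPM in traced 2. *Acer1*, an alkaline ceramidase, stood at 68.3, 399, 324, 423 and 338 CPM. In the other epidermal wells of these 5 mice *Elovl4* lay between 27.5 and 47.5 CPM and *Acer1* between 14.5 and 32.2 CPM. *Krt78*, a keratin of suprabasal cells, did not pass the filter on low values, and was at 0 in EGFP 1 and EGFP 2 and between 67.7 and 292 CPM in the committed wells of the other 4 mice, against at most 1.70 CPM in the other epidermal wells.

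The question of the first comparison was which other transcripts differ between wells split by *Krt1* and *Krt10*. The transcripts of a class were added up within each mouse and tested with edgeR's quasi-likelihood test with the mouse as a block, over 5 mice. Against the other epidermal wells, 403 of 4316 tested genes (9.34%) were higher and 425 (9.85%) lower in committed wells at an adjusted p under 0.05, or 19.2% in all. For 8.94% of the genes the levels of the mice did not overlap between the classes. Of the 10 largest falls, *Ctgf*, a matricellular protein of the lower follicle list, stood at 0 to 4.05 CPM in committed wells and at 176 to 392 CPM in the other wells. *Sparc*, a matrix protein outside that list, stood at 0 to 14.7 CPM against 111 to 378 CPM. Neither gene overlapped between the classes. Both were near 0 in committed wells and passed the filter on low values through the other wells. Their direction and lack of overlap are thus partly set by the filter. All 12 tested genes of the lower follicle list were lower, some of which had defined the lower follicle wells. Genes such as *Angptl7*, at 0 to 8.10 CPM in committed wells, passed in the same way, so this shared direction too is partly set by the filter.

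Committed wells were therefore set against the wells without follicle genes, the wells nearest to basal interfollicular cells. Here 336 of 3521 tested genes (9.54%) were higher and 373 (10.6%) lower, or 20.1% in all, the levels of the mice did not overlap for 7.78%, and the median log2 fold of all tested genes was -0.03. Thinning every well to 1000 transcripts before summing left 848 genes to test, of which 90 were higher and 92 lower.

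Basal genes fell. *Krt5*, the basal type II keratin, stood at 3801 CPM in the committed wells of EGFP 2, 7492 in EGFP 3, 7175 in EGFP 4, 4251 in traced 1 and 9151 in traced 2. In the wells without follicle genes it stood at 11819, 22125, 17750, 20457 and 20775 CPM in the same mice. Every mouse was lower in committed wells and the classes did not overlap. The means were 6374 ± 2277 and 18585 ± 4102 CPM (SD, n = 5 mice), a log2 fold of -1.51 ± 0.15 (SE, adjusted p = 2.7e-10). EGFP 1, outside the test, stood apart at 11540 CPM in its 7 committed wells against 14047 CPM.

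*Krt14*, the partner of keratin 5, fell as well. It stood at 819, 589, 863, 618 and 1405 CPM in committed wells of EGFP 2, 3, 4 and traced 1 and 2, and at 8795, 7505, 7303, 6654 and 6825 CPM in their wells without follicle genes. All 5 mice were lower, with no overlap. The means were 859 ± 328 and 7417 ± 845 CPM (SD, n = 5), a log2 fold of -3.09 ± 0.17 (adjusted p = 4.2e-18). As *Krt5* and *Krt14* form 1 filament, the level of *Krt14* relative to *Krt5* was also lower in committed wells than in wells without follicle genes of every mouse, and that difference was not tested.

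*Itga6*, the integrin subunit used in the sort, stood at 250, 64.6, 60.8, 152 and 177 CPM in committed wells, and at 1238, 342, 166, 551 and 552 CPM in wells without follicle genes of the same mice. All 5 mice were lower, but the classes overlapped, since the 166 CPM of EGFP 4 in wells without follicle genes lay below the committed wells of EGFP 2 and traced 2. The log2 fold was -1.90 ± 0.23 (adjusted p = 1.23e-08). Since the gate of a well was not used, the part of the ITGA6 gates in this fall was not tested. *Krt15*, a further basal keratin, ran low on the plates of EGFP 3 and 4, at 1190 and 1702 CPM in committed wells against 1827 and 1612 CPM. In EGFP 2, traced 1 and traced 2 it stood at 4711, 6859 and 6466 CPM against 6924, 13392 and 16503 CPM. *Krt15* was thus lower in 4 of 5 mice and slightly higher in EGFP 4, with a log2 fold of -0.66 ± 0.16 (adjusted p = 1.26e-03, and 0.551 without the mouse as a block).

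**Figure D2:**
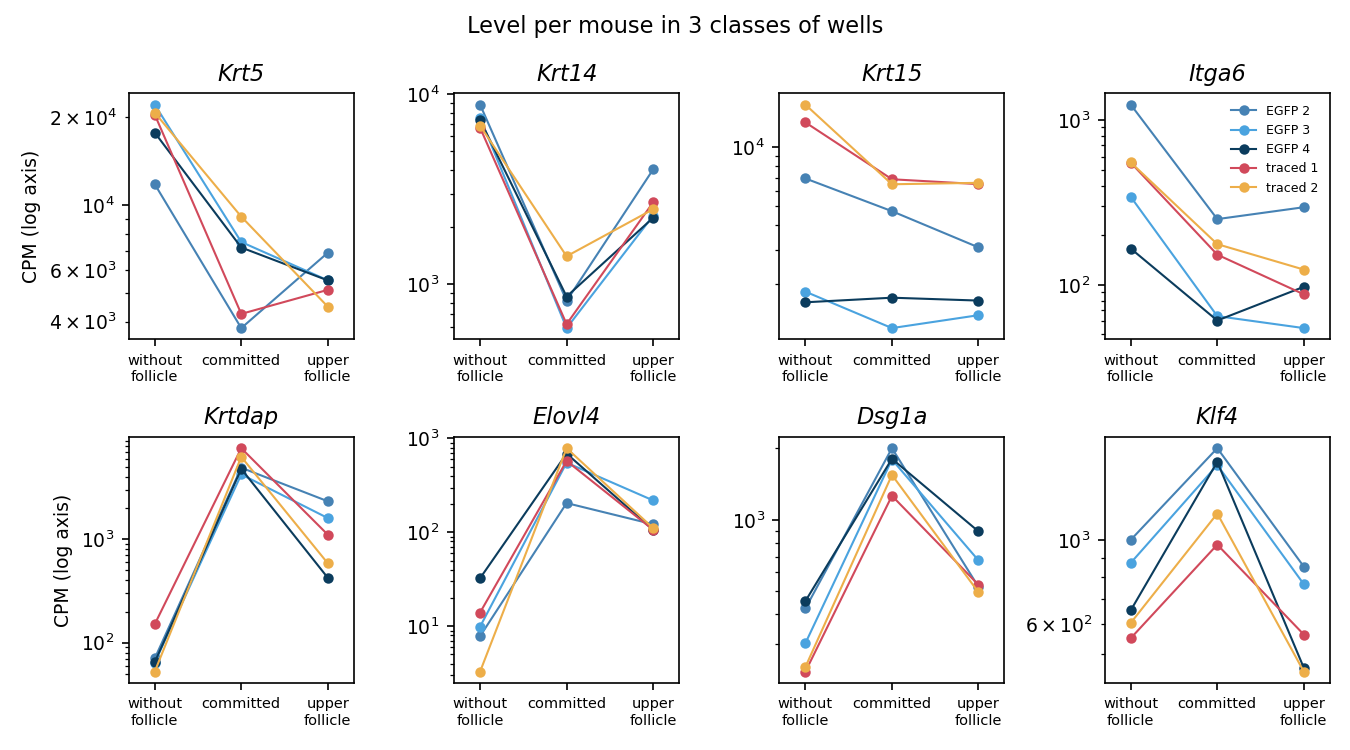
Level (vertical axes, CPM, log scale) of 8 genes in the wells without follicle genes, the committed wells and the upper follicle wells, with 1 line for each of 5 mice. *Krt14* is lowest in committed wells in every mouse, and *Krt5* falls from 11819 to 22125 CPM in wells without follicle genes to 3801 to 9151 CPM in committed wells.

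Of 20 genes of basal keratins and basement membrane adhesion 16 were tested, and 13 were lower, none was higher and 3 did not pass. Their median log2 fold was -1.63, beside -0.03 over all genes. Some of the 13, such as *Itga3* (0 to 29.4 CPM in committed wells), *Lama5* (0 to 22.8 CPM) and *Cdh3* (0 to 45.5 CPM), passed the filter on low values through the classes where they were high, so the shared direction is partly set by the filter. The hemidesmosome genes *Col17a1* (collagen XVII) and *Dst* (the BP230 plakin) fell by 1.40 ± 0.15 and 1.37 ± 0.18 on the log2 scale (adjusted p = 6.33e-10 and 8.38e-08). Both kept levels well above 0, at 567 to 1114 CPM for *Col17a1* and 699 to 1024 CPM for *Dst* in committed wells. The laminin chain gene *Lamb3* fell by 3.08 ± 0.34, from 217 to 485 CPM in wells without follicle genes to between 0 and 91.0 CPM. *Itga3*, a laminin receptor subunit, fell by 3.78 ± 0.49 and *Itgb1*, its partner, by 1.85 ± 0.32. *Plec*, the plectin gene, fell by 0.70 ± 0.24 (adjusted p = 0.0303), a call lost in 9 alternative settings. The log2 fold of *Trp63*, the master transcription factor of stratified epithelium, was -0.37 ± 0.22 (adjusted p = 0.268), at 79.8 to 397 CPM in committed wells and 72.1 to 554 CPM in wells without follicle genes. Thinned to 1000 transcripts per well, 7 of 10 tested genes of the list were lower, and 14 of 16 were lower when committed wells with follicle genes were left out.

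Basal transcripts were also counted well by well. Of 153 committed wells, 142 held a transcript of *Krt5*, 62 of *Krt14* and 46 of *Itga6*. Both *Krt5* and *Krt14* were found in 59 wells, *Krt5* alone in 83, *Krt14* alone in 3 and neither in 8. All of *Krt5*, *Krt14* and *Itga6* were found in 22. Since committed wells were deeper, each well was thinned to 1000 transcripts. *Krt5* was then found in 83.3, 69.2, 87.2, 73.1 and 82.4% of the committed wells of EGFP 2, 3, 4 and traced 1 and 2, and in 95.1, 92.8, 90.6, 89.6 and 89.8% of the other epidermal wells. *Krt14* was found in 50, 15.4, 28.2, 7.69 and 29.4% of committed wells, and in 68.6, 68.5, 73.6, 74.0 and 80.8% of the other wells. For *Itga6* the shares were 33.3, 1.92, 2.56, 11.5 and 11.8% against 36.3, 15.3, 6.92, 25.5 and 30.5%. The share was lower in committed wells for each gene in 5 of 5 mice, whereas in EGFP 1, outside the test, *Itga6* was found in 57.1% of 7 committed wells and 40% of 20 other wells. The mean differences were -12.5 ± 7.86, -47.0 ± 17.6 and -10.7 ± 6.78 percentage points (SD, n = 5 mice). An exact two-sided permutation test over mice gave p = 0.0625 for each gene, which is the smallest p that 5 mice allow, and an adjusted p of 0.0625 over the 3 genes. Without thinning the mean shares were 92.7 against 96.6% for *Krt5*, 45.4 against 82.7% for *Krt14* and 34.0 against 43.4% for *Itga6*.

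Immune wells, which should lack these genes, held keratin transcripts too, from a source that was not tested. In the immune wells of the same plates (T cell and Langerhans wells, 105 in all), thinned alike, *Krt5* was found in 31.2 to 88.9% of wells, *Krt14* in 9.09 to 33.3% and *Itga6* in 0%. The *Krt5* share in the committed wells of EGFP 2, 83.3% of 12 wells, was below the 88.9% of 9 immune wells there, and the *Krt14* share of traced 1, 7.69% of 26 wells, was below the 9.09% of 11 immune wells there, so neither share lay above the background of its plate. In EGFP 3 the committed wells, at 69.2% for *Krt5* and 15.4% for *Krt14*, lay below the T cell wells alone, at 70.0% and 20.0% of 10 wells. Langerhans wells alone were at 100% for *Krt5* in EGFP 2 and traced 2, and at 50% for *Krt14* in both, against 50% and 29.4% in committed wells, but numbered 4 and 2. These shares of *Krt5* and *Krt14* are therefore not read as expression above background. By level, T cell wells held 265 to 1594 CPM of *Krt5* and 37.8 to 245 CPM of *Krt14*, below the 3801 CPM and 589 CPM that were the lowest of the 5 tested mice in committed wells. Langerhans wells held 1894 to 6686 CPM of *Krt5* and 379 to 1800 CPM of *Krt14*, which overlap the committed wells. In the 4 mice with Langerhans wells, *Krt5* was higher in the committed wells of each mouse, while *Krt14* was lower in the committed wells of EGFP 3 and traced 2.

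The spinous list holds genes of the first suprabasal layers. Of its 28 genes 21 were tested, and 18 were higher and 1 lower, with a median log2 fold of 3.00. *Mt4*, *Acer1* and *Elovl4* were low in wells without follicle genes and passed the filter on low values through classes where they were high, for *Mt4* the committed wells, so this count and median are partly set by the filter. Thinned to 1000 transcripts, 11 of 14 tested genes were higher and 2 lower. *Krtdap* rose by 6.15 ± 0.28 (log2 fold, SE, adjusted p = 1.56e-20), from 52.6 to 151 CPM in wells without follicle genes. *Elovl4* rose by 5.35 ± 0.34 and *Acer1* by 5.40 ± 0.42. *Calm4*, a calmodulin-like protein of keratinocytes, stood at 1229, 1847, 1588, 3421 and 2825 CPM in EGFP 2, 3, 4 and traced 1 and 2 against 153 to 375 CPM. It did not overlap between the classes (log2 fold 3.23 ± 0.23, adjusted p = 1.94e-14). The lower member was *Serpinb2*, a serine protease inhibitor, at -1.36 ± 0.27 (adjusted p = 1.92e-04).

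The genes with the largest rises by the rule for named genes were *Gm94*, *Krtdap*, *Ankrd35*, *Mt4*, *Acer1*, *Elovl4*, *Skint9*, *Spink5*, *Agpat4* and *Ly6g6c*. *Gm94* stood at 410, 118, 194, 915 and 1332 CPM in the committed wells of EGFP 2, 3, 4 and traced 1 and 2, and at 0 to 9.86 CPM in their wells without follicle genes (log2 fold 6.97 ± 0.39). *Mt4*, a metallothionein of stratified epithelium, stood at 1206, 103, 158, 1440 and 787 CPM against 0 to 22.4 CPM (5.88 ± 0.32). Both genes passed the filter on low values through the committed wells alone, so their direction is set by it, and both were lower in EGFP 3 and 4 than in the other mice. *Spink5*, the LEKTI protease inhibitor, stood at 228, 148, 126, 263 and 243 CPM against 2.80 to 31.3 CPM (4.40 ± 0.58, adjusted p = 1.04e-07).

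Of 15 desmosome genes 11 were tested, and 9 were higher, 1 was lower and 1 did not pass, with a median log2 fold of 1.32. *Dsg1a*, a desmosomal cadherin of the suprabasal layers, stood at 2003, 1794, 1807, 1262 and 1545 CPM in committed wells and at 423, 302, 454, 229 and 240 CPM in wells without follicle genes of the same mice. The classes did not overlap (2.42 ± 0.15, adjusted p = 3.83e-16). *Dsc3* rose by 1.42 ± 0.15, *Perp* by 1.15 ± 0.12 and *Dsp*, the desmoplakin gene, by 1.01 ± 0.12. *Dsg2*, a cadherin of simple and basal epithelium, fell, at -2.36 ± 0.48 (adjusted p = 1.93e-04).

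Barrier lipid genes were mostly below the filter, with 7 of 23 tested. All 7 of these were higher (*Elovl1*, *Elovl4*, *Elovl7*, *Acer1*, *Fabp5*, *Degs1* and *Abhd5*, of which *Elovl4*, *Acer1* and *Fabp5* also stand in the spinous list). *Acer1* and *Elovl4* passed the filter through the committed and upper follicle wells, where they were higher, so the shared direction is partly set by the filter. *Fabp5*, a fatty acid binding protein, stood at 364, 350, 405, 322 and 302 CPM against 14.9 to 81.1 CPM (3.30 ± 0.38, adjusted p = 7.31e-09). *Abhd5*, the cofactor that releases stored triglyceride, rose by 1.16 ± 0.27 (adjusted p = 1.29e-03).

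The cornified envelope was barely represented. Of 24 late differentiation genes 6 were tested and 5 of these were higher (*Casp14*, *Klk5*, *Klk7*, *Spink5* and *Sprr1a*). The filter took the committed, upper follicle, lower follicle and other wells together, and *Klk5*, *Klk7*, *Spink5* and *Sprr1a* were low in wells without follicle genes and higher in upper follicle or committed wells, so this direction too is partly set by the filter. *Casp14*, the caspase that processes filaggrin, stood at 45.5, 76.0, 150, 237 and 125 CPM in committed wells against 28.9 to 39.2 CPM (2.04 ± 0.41, adjusted p = 1.91e-04). Over all 831400 transcripts of the committed wells, 8 of the 24 genes had no transcript, namely *Flg*, *Rptn*, *Tgm1*, *Lce1a1*, *Lce1c*, *Lce1g*, *Lce3c* and *Sprr2a1*, which allows up to 3.61 CPM. Over the committed and other epidermal wells together, 19 of the 24 genes had a transcript. Some of the 8 were thus missing from both classes, and their absence is not particular to committed wells. *Lor*, the loricrin gene, had 2 transcripts in 1 mouse and *Ivl*, the involucrin gene, 9.

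Regulators of differentiation had smaller folds. Of 17 tested transcription factors 8 were higher and 1 lower, with a median log2 fold of 0.54. *Klf4*, a factor needed for the skin barrier, stood at 1752, 1581, 1612, 974 and 1177 CPM in committed wells and at 1002, 871, 653, 551 and 605 CPM in wells without follicle genes. All 5 mice were higher, though the classes overlapped between mice (1.00 ± 0.15, adjusted p = 2.06e-06). *Gata3*, a factor of epidermal differentiation, rose by 0.54 ± 0.14 and already stood at 799 to 1842 CPM in wells without follicle genes. *Hopx*, a homeodomain protein, fell by 0.58 ± 0.19 (adjusted p = 0.0224). In the Notch pathway, which drives commitment in the suprabasal layer, 4 of 7 tested genes were higher, among them *Notch2*, *Notch3* and *Hes1*. *Hes1*, a direct Notch target, was higher in 3 of 5 mice and lower in 2 (1.09 ± 0.31, adjusted p = 9.2e-03). *Notch1* stood at 83.6 to 296 CPM against 74.3 to 180 CPM (0.40 ± 0.28, adjusted p = 0.362).

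**Figure D3:**
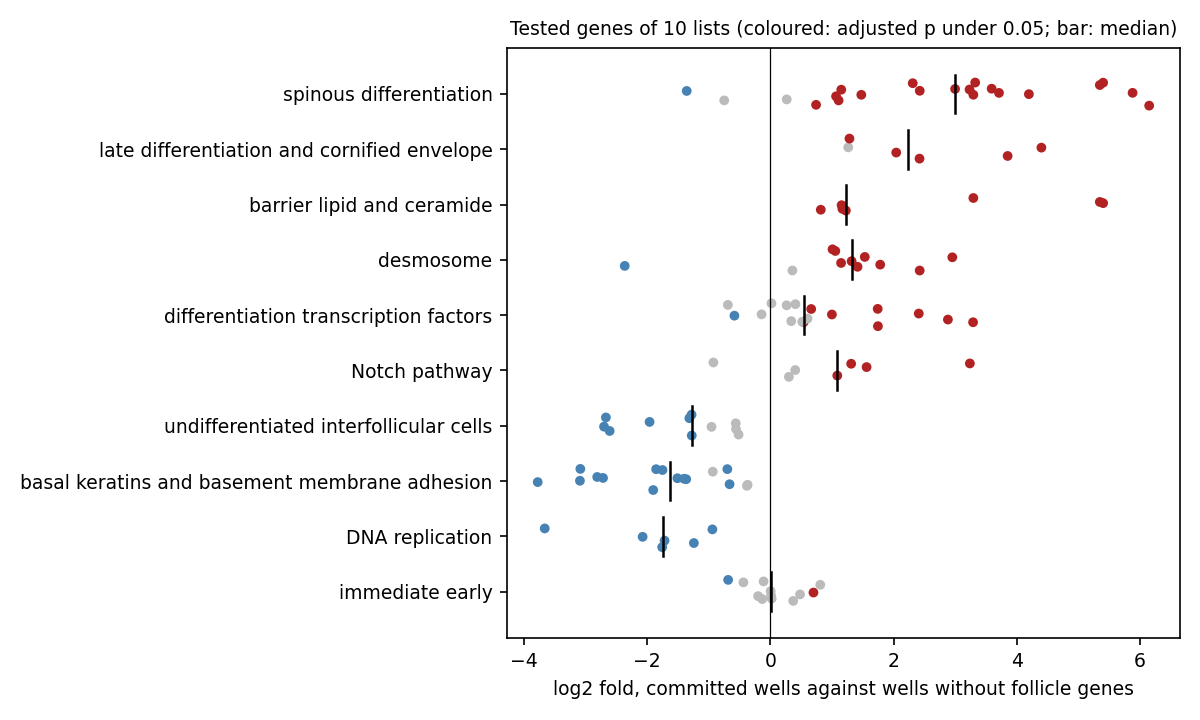
Log2 fold between committed wells and wells without follicle genes (horizontal axis) of the tested genes of 10 lists (vertical axis), with 1 point per gene, red or blue at an adjusted p under 0.05, grey otherwise, and a bar at the median. The spinous median lies at 3.00 and the basal median at -1.63, while immediate early genes centre on 0.01.

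Few genes of cell division could be tested. Of 18 genes of the DNA replication list 12 did not pass the filter on low values, and 6 did and were lower (*Mcm6*, *Mcm7*, *Pcna*, *Rrm1*, *Slbp* and *Dut*). Genes such as *Dut*, at 0 to 36.8 CPM in committed wells and 72.1 to 158 CPM in wells without follicle genes, passed through the class where they were high, so the shared direction is partly set by the filter. Against the other epidermal wells 4 of 9 tested replication genes were lower, and against upper follicle wells none of 6 passed the test. *Pcna*, the replication clamp, stood at 250, 68.4, 101, 237 and 309 CPM against 611, 129, 202, 472 and 529 CPM, lower in 5 of 5 mice (-0.94 ± 0.23, adjusted p = 2.15e-03). Of 18 mitosis genes only *Hmgb2*, a chromatin protein, passed the filter, and it was lower at -0.73 ± 0.26 (adjusted p = 0.0385). Of 11 tested genes of undifferentiated interfollicular cells 7 were lower and none higher. *Ccnd2*, a cyclin of the G1 phase, stood at 114, 156, 190, 93.2 and 316 CPM against 752, 1856, 1324, 791 and 1065 CPM with no overlap (-2.67 ± 0.24, adjusted p = 5.61e-12). *Ly6a*, which encodes SCA1, was lower in 4 of 5 mice at 36.5 to 250 CPM against 99.0 to 632 CPM (-1.31 ± 0.36, adjusted p = 6.27e-03). Without traced 1 its adjusted p was 0.139, and with DESeq2 0.196. The gene *Tnfrsf19*, whose coding region the cassette replaces, stood at 7.36 to 64.6 CPM against 2.80 to 94.0 CPM (-0.52 ± 0.50, adjusted p = 0.558). In committed wells it stood at 22.8, 64.6 and 56.7 CPM in EGFP 2, 3 and 4. In traced 1 and 2, with the knockin at both alleles, it stood at 8.47 and 7.36 CPM. The fold pools these mice and says little about *Tnfrsf19* in committed cells.

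The largest falls by the same rule were those of *Cbr2*, *Ctnnal1*, *Agrn*, *Tns1*, *Antxr1*, *Il1r2*, *Itga3*, *Sparc*, *Serpinb10* and *Dut*. *Il1r2*, the decoy receptor of interleukin 1, stood at 22.8, 15.2, 16.2, 16.9 and 95.6 CPM in committed wells against 180, 559, 379, 830 and 657 CPM (-4.08 ± 0.34, adjusted p = 7.71e-13). *Cbr2*, a carbonyl reductase, stood at 0 to 29.4 CPM against 149 to 505 CPM (-4.60 ± 0.35). *Tns1*, tensin 1 of focal adhesions, stood at 0 to 22.8 CPM against 148 to 243 CPM (-4.32 ± 0.42). In committed wells *Ctnnal1* stood at 0 to 7.36 CPM, and *Agrn* and *Sparc* at 0 to 14.7 CPM. All of the genes named here, *Il1r2* among them, were low in committed wells and passed the filter through the classes where they were high. Their direction is therefore partly set by the filter.

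Ribosomal and immediate early genes centred close to 0 between these classes. Ribosomal protein genes had a median log2 fold of 0.01, with 1 of 72 tested genes higher and none lower, and the sign of this median turned without TMM factors (-0.03). Against the other epidermal wells 19 of the 72 were higher and none lower, with a median log2 fold of 0.19. This count was 7 to 24 under DESeq2 and the other scalings, and 0 without the mouse as a block. Against upper follicle wells 50 of the 72 were higher and none lower, with a median of 0.42. This count was 44 to 52 under DESeq2 and the other scalings, 33 of 69 after thinning, and 1 without the block. Copies of these genes elsewhere in the genome can share their reads. Of 12 tested immediate early genes, which respond to cell dissociation, *Klf6* was higher and *Jun* lower, with a median of 0.01. No gene of the T cell, melanocyte or fibroblast and endothelial lists passed the filter. Of the Langerhans list 2 genes did and neither passed the test. Of the damaged-well list the 2 tested genes, *Malat1* and *Neat1*, had log2 folds of -0.01 and -0.19. Of 4 tested sebaceous genes, *Scd1* was higher and *Mgst1* and *Plin2* lower. Of 7 tested upper follicle genes 1 was higher and 3 were lower, and of 10 lower follicle genes 6 were lower.

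Set against upper follicle wells, the other class with differentiation genes, committed wells had 314 of 3521 genes (8.92%) higher and 323 (9.17%) lower, or 18.1% in all, and no overlap between the mice of the classes for 6.79%. These contrasts share the committed wells with those above. The basal genes now differed little. *Krt5* stood at 6885, 5540, 5536, 5138 and 4500 CPM in the upper follicle wells of EGFP 2, 3, 4 and traced 1 and 2, and was higher in committed wells in 3 of 5 mice (log2 fold 0.22 ± 0.16, adjusted p = 0.395). *Itga6* (0.20 ± 0.30, adjusted p = 0.734) and *Krt15* (0.17 ± 0.16, adjusted p = 0.544) did not pass the test either. Of 16 tested basal genes *Col17a1* was higher and *Krt14* and *Lamb3* were lower. *Krt14* was the exception among the keratins, at 4016, 2296, 2238, 2697 and 2482 CPM in upper follicle wells, above the committed wells in every mouse (-1.61 ± 0.17, adjusted p = 6.97e-10).

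Genes of the differentiation lists moved in both directions against upper follicle wells. Of 21 tested spinous genes 11 were higher and 3 lower, and of 11 desmosome genes 6 were higher and 1 lower. *Krtdap* was higher by 2.51 ± 0.23, *Elovl4* by 2.25 ± 0.28 and *Acer1* by 1.89 ± 0.33 on the log2 scale. Of 6 tested late genes *Casp14* was higher, while *Ivl*, *Klk7* and *Sprr1a* were lower and 2 did not pass. *Ivl* and *Sprr1a* were low in committed wells and passed the filter through the upper follicle wells, where they were high, so their direction is partly set by the filter. *Sprr1a*, a cornified envelope precursor, stood at 91.0, 11.4, 48.6, 76.2 and 22.1 CPM in committed wells against 3686, 1112, 1309, 4944 and 3537 CPM (-5.79 ± 0.26, adjusted p = 4.56e-21). *Gata3* stood at 1236 to 2551 CPM against 174 to 747 CPM with no overlap (2.22 ± 0.17, adjusted p = 1.74e-13). *Igfbp3*, an insulin-like growth factor binding protein, stood at 154 to 229 CPM against 0 to 17.7 CPM, and *Satb1*, a chromatin organiser, at 67.7 to 205 CPM against 0 to 34.8 CPM. *Igfbp3* was, however, called lower in committed wells than in wells without follicle genes, so its higher level here is not particular to committed wells. *Gm94* had no transcript in the upper follicle wells of any of the 5 mice.

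Committed wells also differed among themselves. Binned by their *Krt1* and *Krt10* share, 29 wells lay at 0.5 to 1%, 61 at 1 to 2% and 63 at 2% or more, with median depths of 2973, 4216 and 5477 transcripts. Scaled as CPM over all transcripts but those of *Krt1* and *Krt10*, *Krt5* stood at 14580, 10892 and 4594 in these bins of EGFP 3 and at 10242, 7517 and 3210 in those of EGFP 4, the 2 mice with the most committed wells. *Krtdap* ran the other way, at 1733, 3018 and 5523 in EGFP 3 and at 2603, 3940 and 9597 in EGFP 4. In these 2 mice *Krt5* was thus lowest and *Krtdap* highest where *Krt1* and *Krt10* were highest. Most bins of the other mice held under 10 wells. In traced 1 the lowest bin held 3 wells, and *Krt5* stood at 2368, 4994 and 4177 and *Krtdap* at 8455, 6709 and 8296, with no such order. In EGFP 1, with 5 wells in the middle bin and 2 in the highest, *Krt5* went from 9879 to 18506 and *Krtdap* from 999 to 204. By level *Krt14* was lowest in the highest bin of EGFP 3 (812, 1077 and 303) and of EGFP 4 (1111, 1067 and 195). It also fell over the bins of EGFP 1, EGFP 2 and traced 2, but rose in traced 1, at 148, 283 and 881. The share of wells with a *Krt14* transcript, not thinned for depth, had no common order. It was 33.3%, 31.6% and 29.6% in EGFP 3 and 42.9%, 52.9% and 62.5% in EGFP 4. For *Krt5* these shares were 83.3%, 94.7% and 85.2% in EGFP 3 and 100%, 94.1% and 100% in EGFP 4.

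Spearman's rho of a gene's level against the *Krt1* and *Krt10* share, across the committed wells of 1 mouse, describes the same pattern. The wells of a mouse share a plate and differ in depth, and n was 12, 52, 39, 26 and 17 wells in EGFP 2, 3, 4 and traced 1 and 2. For *Krt5* rho was -0.599, -0.319, -0.473, 0.002 and -0.635, and for *Krt15* -0.486, -0.333, -0.120, -0.656 and -0.505. For *Sbsn*, a suprabasal secreted protein, it was 0.532, 0.383, 0.590, 0.429 and 0.665, and for *Krtdap* 0.497, 0.300, 0.496, 0.184 and 0.749. *Krt14* showed no common direction, at -0.599, -0.056, 0.018, 0.005 and -0.188. *Sbsn* and *Krtdap* were thus positive in all 5 mice, *Krt15* negative in all 5 and *Krt5* negative in 4.

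**Figure D4:**
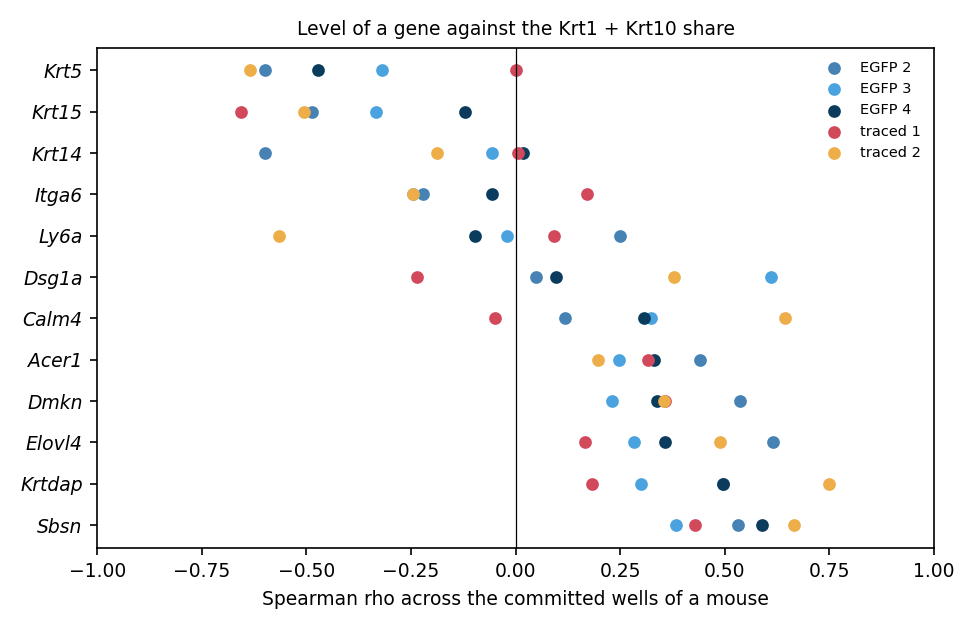
Spearman's rho (horizontal axis) between the level of 12 genes (vertical axis) and the *Krt1* and *Krt10* share across the committed wells of each of 5 mice (points). *Krt15* lies below 0 in every mouse and *Krtdap* and *Sbsn* above 0, while *Krt14* lies on both sides.

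Between the experiments, few genes were called in the committed wells of the 2 traced and 3 EGFP mice. With so few mice this does not show that few genes differ. Of 2598 tested genes 11 (0.423%) were higher and 15 (0.577%) lower in traced mice, or 1.00% in all, with 426 at an unadjusted p under 0.05. This count ran from 0 to 591 when 1 mouse was left out and was 583 at a limit of 1% for *Krt1* and *Krt10*, where EGFP 2 fell below 10 wells. Experiment, number of knockin alleles, reporter, tamoxifen and plate cannot be told apart here, and the plates of EGFP 3 and 4, which alone came from female mice, also differed from the rest in how their gene tables were made. *Krt77*, a type II keratin, stood at 0, 34.2 and 28.4 CPM in EGFP 2, 3 and 4 and at 254 and 213 CPM in the traced mice (2.89 ± 0.53, adjusted p = 0.049). Without the deepest committed well of each mouse its log2 fold was 2.56 (adjusted p = 0.0877). *Hras*, *Msmo1*, *Ppp1ca* and *Cfl1* were the other named rises, and *Snora81*, *4930470H14Rik*, *Gm10785*, *A130077B15Rik* and *2900060B14Rik* the named falls. Without the deepest committed well of each mouse *Cfl1* (adjusted p = 0.0673), *A130077B15Rik* and *2900060B14Rik* (both 0.0539) lost their call too. Their log2 folds moved little, from 3.12 to 3.19, from -5.28 to -4.94 and from -4.77 to -4.63.

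*Krt5*, *Krt14*, *Krt15* and *Krtdap* gave no call between the experiments. Adjusted p was 0.986 for *Krt5* (-0.03 ± 0.41), 0.774 for *Krt14* (0.28 ± 0.40), 0.257 for *Krt15* (1.29 ± 0.51) and 0.397 for *Krtdap* (0.44 ± 0.24). The difference between committed and other epidermal wells itself depended on the experiment in 5 of 4316 genes (0.116%), with a positive term (log2 fold in traced minus EGFP mice) for 4 (0.0927%) and a negative one for 1 (0.0232%), with 244 at an unadjusted p under 0.05 and 0 by DESeq2.

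In the bulk libraries, a readout the selection did not use, fewer cells of a type and less RNA per cell cannot be told apart. *Krt1* stood at 1455 and 1412 CPM in ITGA6bright EGFP+ cells and at 383 and 272 CPM in ITGA6bright EGFP- cells of the same replicates, with 1315 and 1120 CPM in viable cells. *Krt10* stood at 1095 and 1301 CPM in EGFP+ cells, 398 and 310 CPM in EGFP- cells, and 1083 and 921 CPM in viable cells. Both keratins were higher in EGFP+ than in EGFP- cells in both replicates, with log2 folds of 2.04 ± 0.32 (adjusted p = 3.68e-04) and 1.67 ± 0.31 (adjusted p = 1.94e-03). With 2 replicates the spread was shared over the 3 populations, and 138 of 4605 tested genes (3.00%) were higher and 185 (4.02%) lower, or 7.01% in all.

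**Figure D5:**
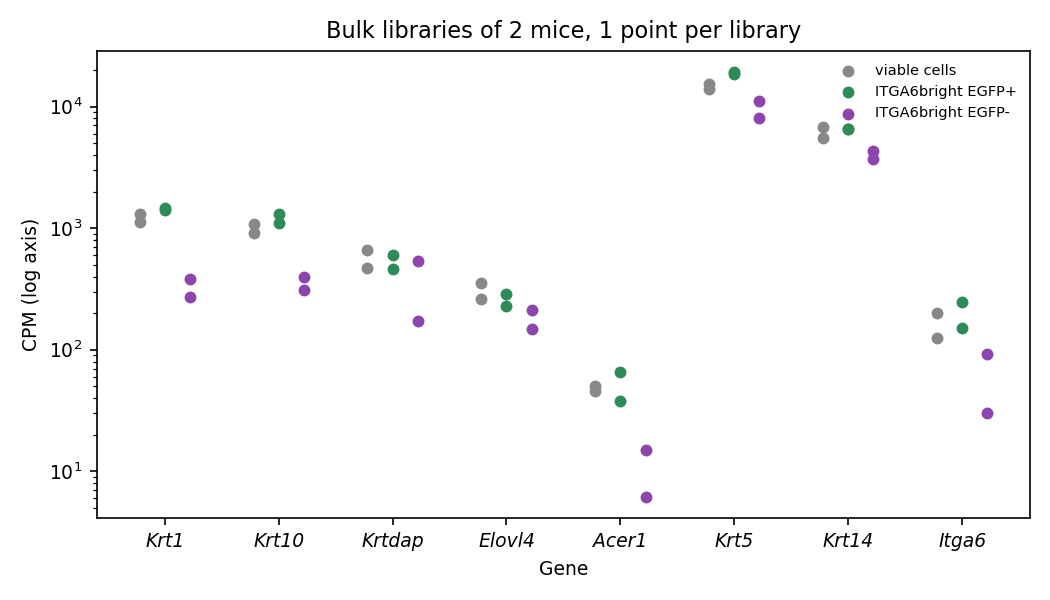
Level (vertical axis, CPM, log scale) of 8 genes (horizontal axis) in the bulk libraries of 2 replicates, with 1 point per library, coloured by population. *Krt1* and *Krt10* stand at 1095 to 1455 CPM in EGFP+ cells and at 272 to 398 CPM in EGFP- cells, whereas the *Krtdap* points of the populations overlap.

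Not all genes of the committed wells followed. *Klf4* stood at 1312 and 1221 CPM in EGFP+ cells against 323 and 328 CPM (1.87 ± 0.31, adjusted p = 6.84e-04), and *Calm4* at 255 and 221 CPM against 82.7 and 61.9 CPM (1.65 ± 0.37, adjusted p = 7.69e-03). *Gm94* and *Mt4* were also higher, at 2.19 ± 0.50 and 2.84 ± 0.80. *Krtdap* gave 0.51 ± 0.39 (adjusted p = 0.511), *Elovl4* 0.46 ± 0.33 (0.486), *Acer1* 2.13 ± 0.78 (0.113), *Krt5* 0.90 ± 0.37 (0.17) and *Krt14* 0.59 ± 0.34 (0.354). *Itga6* was higher, at 152 and 246 CPM against 30.1 and 92.9 CPM (1.51 ± 0.45, adjusted p = 0.0458), in populations gated on the ITGA6 protein. Of the 336 genes higher in committed wells than in wells without follicle genes, 287 were tested in bulk, and 31 of them were higher and 9 lower in EGFP+ cells, beside 103 and 131 of the 3071 genes tested in both. Of the 373 genes lower in committed wells 337 were tested in bulk, and 24 were higher and 46 lower in EGFP+ cells. Both sets thus held a larger share of genes higher in EGFP+ cells than all genes tested in both. The EGFP- libraries also held more of the upper follicle gene *Krt79*, at 3878 and 1777 CPM against 313 and 367 CPM, and of the immune gene *H2-Ab1*, at 594 and 440 CPM against 38.1 and 15.1 CPM, and the part of these other cells in the bulk values was not tested.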

How the data were processed

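Single cells had been processed by SORT-seq (CEL-Seq2 in 384-well plates). The authors deposited, per gene and well, estimated transcript counts: distinct molecular barcodes with a correction for repeated draws of the same barcode, which returned whole barcode numbers within 1e-06 for 4096 barcodes of 6 bases. For the bulk libraries the authors deposited raw read counts per gene, without normalization. The submitters' processing notes name BWA 0.6.2-r126 and the builds mm10 and GRCm38. All plates use the same 384 well barcodes, which mark positions and not shared cells.

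Spike-in and mitochondrial rows were dropped. Sums per mouse and class, with at least 10 wells, were rounded and went through filterByExpr, TMM scaling and the quasi-likelihood test of edgeR (version 4.0.16, under R 4.3.3), with Benjamini-Hochberg adjustment at 0.05. Genes that chose the wells or split the classes were left out of the tests that used them. CPM are counts scaled to a total of 1000000 without further factors, while folds come from the TMM-scaled fit. SE are the log2 fold divided by the root of its F value. Both classes of a mouse come from 1 animal and plate, so the mouse was a block (same-mouse deviations correlated by 0.459 to 0.712). The bulk fit held all 6 libraries of 133072 to 396380 counts without a block. DESeq2 1.42.0 and other filters, scalings, limits and left-out mice were alternatives. On sums simulated from the committed and other wells, the test was checked for recovery of known changes. Doublets were not called, and the deeper committed wells were not screened for them.

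The committed wells, the gene lists and the tests were chosen with earlier results of these data known. Named were the genes of the rule, the markers, the basal list, *Tnfrsf19* and *Ly6a*, the 10 largest rises and falls of the first 2 comparisons (5 in the others) with the same direction in every mouse and at least 100 CPM in 1 class, and the 4 most abundant genes of each list. Leaving out the deepest committed well of each mouse was chosen after seeing the data. Genes of a list named without values are those that passed its test. *Serpinb2*, *Dsg2*, *Sbsn* and the named late genes were singled out after their values were seen. Promoter windows came from RefSeq (GRCm38.p6). The table held no window for *Krt1* or *Itga6*.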

Additional observations from a re-analysis of the deposited data

Results flagged for a closer look

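*Krtdap* in the committed wells of the 4 EGFP mice stood at 815, 4916, 4235 and 4793 CPM. The gap of EGFP 1 to the next mouse was 0.834 of the whole range, above the limit of Dixon's test at 95% for 4 samples. EGFP 1 had 7 committed wells, and chance flags about 1 in 20 such groups, of which 13 were looked at.

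For 5 genes the difference between committed and other epidermal wells depended on the experiment. *Calml3* (a calmodulin-like protein) had no transcript in the committed wells of the 3 tested EGFP mice, and stood at 42.3 and 118 CPM in the traced mice, against 304 to 588 CPM in other wells (difference of log2 folds 7.27, adjusted p = 1.41e-03). With no transcript in these EGFP wells, the size of this difference is not fixed by the counts. *Abca1*, a cholesterol exporter, stood at 72.2 to 122 CPM in the committed wells of EGFP mice and at 0 and 7.36 CPM in the traced mice (-4.86, adjusted p = 2.83e-03). *Postn* (3.04), *Spink5* (2.40) and *Krt17* (1.60) each had an adjusted p of 0.02. DESeq2 called none of these 5 genes, and without the deepest committed well of each mouse *Abca1* was the one that kept its call. *Calml3* then had a difference of 4.83 (adjusted p = 0.767), *Postn* of 1.96 (0.848), *Spink5* of 1.88 (0.356) and *Krt17* of 0.70 (0.958).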

How the results depend on the processing

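The counts of genes called in the comparisons of committed wells with the other wells (828), the wells without follicle genes (709) and the upper follicle wells (637) stayed within 1.5 times under DESeq2, other scalings, no filter on low values, other limits for *Krt1* and *Krt10*, a minimum of 2000 transcripts and each mouse left out. An alternative chosen after seeing the data, without the deepest committed well of each mouse, gave 775, 646 and 642 calls, 19 between the experiments and 5 for the dependence on the experiment, of which 1 was among the 5 named. Thinning every well to 1000 transcripts left 1125, 848 and 848 genes to test and gave 233, 182 and 214 calls. Without the mouse as a replicate block the calls were 374, 296 and 276, and in the bulk comparison the mouse as a replicate block gave 459 calls against 323. Over the named genes and settings of the first 2 comparisons, 739 and 700 values kept their direction and call, 3 and 2 gained a call and 12 and 13 lost it, chiefly those of *Lama3*, *Plec* and *Ly6a*. *Itga6* against the other wells lost its call without the block (adjusted p = 0.078).

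Between the experiments, 26 genes were called, against 59 with DESeq2, 45 without TMM factors, 239 with no filter, 583 at a limit of 1%, 8 after thinning and 128 in male mice only, and 0 to 591 with each mouse left out (591 without EGFP 2, and 0 without EGFP 4 or traced 2). In male mice only, and without a traced mouse, an arm held 1 mouse, which was assumed to vary like the mice of the other arm. The limit of 1% left EGFP 2 with under 10 wells, so its 583 calls compare the same mice as the 591. The 5 genes whose difference depended on the experiment became 0 with DESeq2, 0 at a limit of 1% and 1 after thinning, and 1 to 28 with each mouse left out (28 without traced 1). *Krt17* turned to -0.58 after thinning. The bulk count of 323 became 157 with DESeq2, 188 in the EGFP+ and EGFP- libraries alone, and 142 to 724 with each library left out (142 without EGFP+ replicate 1, 724 without EGFP- replicate 2). The number of committed wells was 101 to 146 with each mouse left out, the lowest without EGFP 3. The cause of these shifts was not tested, apart from the fewer genes tested after thinning. With 5 mice the shares of wells could not reach p under 0.05.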

Other observations

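In the committed wells, which were chosen by these 2 genes, *Krt1* made up 25.5% of the *Krt1* and *Krt10* transcripts (17.1 to 36.2% by mouse), while in the bulk libraries *Krt1* stood at 1315 CPM and *Krt10* at 1083 CPM in the viable cells of the first replicate, and at 1120 and 921 CPM in those of the second. The viable cells in bulk were not chosen by these genes, so the populations are unlike. The 2 kinds of library were prepared and mapped separately, and the difference was not tested.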
